A study of Mus musculus with 6 samples.

Results

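Periportal hepatocytes, which lie where blood enters the liver lobule, take up amino acids and break their carbon skeletons down for glucose synthesis or oxidation. The 9 enzymes described here carry out steps of that work: tyrosine aminotransferase (Tat) and 4-hydroxyphenylpyruvate dioxygenase (Hpd) for tyrosine, histidine ammonia-lyase (Hal), urocanate hydratase (Uroc1) and formimidoyltransferase cyclodeaminase (Ftcd) for histidine, serine dehydratase (Sds) and serine dehydratase-like (Sdsl) for serine and threonine, tryptophan 2,3-dioxygenase (Tdo2) for tryptophan, and proline dehydrogenase (Prodh) for proline. They were chosen by gene symbol as enzymes of amino acid breakdown, through the Ensembl identifiers of the gene count tables, with no threshold on their values but with earlier results of these data known. All 9 were found among the 37991 genes of the tables, and all 9 passed the filter on low counts that left 17558 genes to test.

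The data were RNA-seq gene counts from 6 mouse libraries in 3 groups of 2. The labels give liver or tumour tissue as the source, while the extraction text speaks of cell lines, and the libraries are taken here as tissue. Control livers came from mice with a Cre recombinase transgene under the albumin promoter (TgAlbCre). KAP1-deleted livers came from mice that carried the same transgene together with a Kap1lox allele (TgAlbCreKap1lox), and the KAP1-deleted tumours were the primary tumours of those same 2 mice. Every mouse received a high-fat diet for 27 weeks and was killed at 35 weeks of age, so the diet and the Cre transgene were shared by all groups and no library analysed here is from a mouse on another diet. KAP1, encoded by Trim28, is a nuclear corepressor that zinc finger proteins bring to DNA. The albumin promoter drives Cre in hepatocytes, and which other cells of the tissue keep the gene was not measured here. The tumours analysed here are from KAP1-deleted mice alone. The comparisons ask how the enzymes differ between KAP1-deleted and control liver, and between the tumours and liver.

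Several of these enzymes are textbook examples of hormonal control in liver. Tat and Tdo2 are induced by glucocorticoids, and Tat and Sds respond to glucagon and to a protein-rich diet. Tat and Hpd act one after the other on tyrosine; Hal, Uroc1 and Ftcd act in that order on histidine, with imidazolone propionase (Amdhd1) between Uroc1 and Ftcd. Tdo2 opens the kynurenine route, and Prodh is a mitochondrial enzyme that many tissues besides liver express.

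Gene counts summed to 39723997 to 62178752 per library, a depth at which every enzyme had reads in every library. Levels are given as CPM, a gene's count relative to the library's total count after adjustment for library composition. Trim28, the targeted gene, stood at 32.5 and 35.9 CPM in control liver, 5.06 and 6.02 in KAP1-deleted liver and 5.22 and 4.59 in tumour, and it fell by 2.63 on the log2 scale between the liver groups (SE 0.19, edgeR adjusted p = 0.00393). Reads in rows that name no gene took 20.9% to 27.6% of a liver library and 36.7% and 33.1% of the tumours. The 10 hepatocyte markers, albumin among them, summed to 105362 to 115711 CPM in the 4 livers. In tumours 1 and 2 they summed to 57177 and 71397 CPM, and no marker of the list was at 0. Between tumour and KAP1-deleted liver all 10 had a log2 difference below 0, and 2 were called lower, beside 6.64% of all tested genes. Apob, the most abundant after albumin, differed by -0.14 (SE 0.34, edgeR adjusted p = 0.814). Albumin alone stood at 53805 to 74525 CPM in the livers and 18162 and 34887 CPM in tumours 1 and 2. Tumour 1 had the lower sum of the pair through albumin, and over the other markers of the list it was not the lower. It was the lower on 6 of the 9 enzymes described here. Macrophage markers summed to 509 to 595 CPM in the livers and 250 and 363 CPM in tumours 1 and 2, endothelial markers to 264 to 286 against 197 and 177 CPM, and cholangiocyte markers to 15.5 to 34.5 against 3.05 and 22.0 CPM, with 1 of 6 cholangiocyte markers at 0 in tumour 1. Stellate markers summed to 58.9 to 125 CPM in the livers and 131 and 126 CPM in the tumours, lymphocyte markers to 29.0 to 37.2 against 31.9 and 64.7 CPM, haemoglobin and other red cell markers to 427 to 987 against 226 and 327 CPM, pancreatic markers to 5.16 to 33.7 against 9.83 and 38.5 CPM, and proliferation genes to 10.8 to 15.5 against 56.4 and 85.9 CPM. Of 7 stellate markers, 3 had a log2 difference below 0 between tumour and KAP1-deleted liver, and 0 were called higher. Des was called lower (-1.42, SE 0.34, edgeR adjusted p = 0.0361). Col3a1, the stellate marker with the highest CPM, had a value of 1.26 and was not called. The lymphocyte sum was mostly Ptprc (mean 36.1 CPM over all libraries), with Cd79b next at 0.990 CPM. Such sums alone do not show the content of a cell type. The part of the marker differences in the results that follow was not tested. In such bulk tissue, fewer cells that express an enzyme and less of its RNA per cell cannot be told apart, and the zone of the lobule from which RNA came is not recorded.

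The promoters of the histidine enzymes and of Tdo2 are shown to set 3 enzymes of one route beside an abundant enzyme whose tumour values lay closer to liver. Each is the 250 bases before the RefSeq start site in GRCm38.p6, read 5′ to 3′ on the gene's strand, in lower case with every match to the searched motifs in capitals. Hal is at chr10:93488518-93488767 on the plus strand, Uroc1 at chr6:90333039-90333288 on the plus strand, Ftcd at chr10:76575398-76575647 on the plus strand and Tdo2 at chr3:81975729-81975978 on the minus strand.
Hal: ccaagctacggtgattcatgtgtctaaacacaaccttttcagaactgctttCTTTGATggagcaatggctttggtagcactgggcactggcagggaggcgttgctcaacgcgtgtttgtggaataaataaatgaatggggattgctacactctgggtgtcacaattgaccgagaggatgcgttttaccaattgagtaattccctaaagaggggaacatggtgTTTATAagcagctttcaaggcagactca
Uroc1: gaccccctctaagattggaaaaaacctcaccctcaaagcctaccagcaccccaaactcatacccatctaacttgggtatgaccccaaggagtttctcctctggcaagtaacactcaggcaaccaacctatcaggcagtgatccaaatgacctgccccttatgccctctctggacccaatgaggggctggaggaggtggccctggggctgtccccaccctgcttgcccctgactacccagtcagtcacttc
Ftcd: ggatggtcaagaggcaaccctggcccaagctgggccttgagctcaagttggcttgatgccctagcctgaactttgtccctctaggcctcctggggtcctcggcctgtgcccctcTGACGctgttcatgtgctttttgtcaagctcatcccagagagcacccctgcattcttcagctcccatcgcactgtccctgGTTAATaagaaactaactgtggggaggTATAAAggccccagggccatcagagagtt
Tdo2: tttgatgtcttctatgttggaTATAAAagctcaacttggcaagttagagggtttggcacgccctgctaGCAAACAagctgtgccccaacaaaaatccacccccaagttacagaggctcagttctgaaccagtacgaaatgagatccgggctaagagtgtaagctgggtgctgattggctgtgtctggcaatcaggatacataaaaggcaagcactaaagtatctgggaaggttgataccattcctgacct

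Motifs were searched on both strands in the 7 members with an entry in the promoter table (Sds and Sdsl had none), and beside each the share of all 27025 promoters holding it is given. Capitals in Hal mark CTTTGAT, a TCF/LEF-type word found in 3.23% of promoters, and TATAAA on the other strand close to the start, a word in 13.0% of promoters. In Ftcd they mark TGACG, a half-site of a cyclic AMP response element (17.9%), GTTAAT, a half-site of an HNF1 site (6.52%), and TATAAA. In Tdo2 they mark TATAAA and, on the other strand, TGTTTGC, a forkhead-type word (4.30%). No searched word was in the 250 bases of Uroc1, Tat, Hpd or Prodh. TGTTCT, a half-site of a glucocorticoid response element, was in 16.2% of all promoters and in 0 of the 7, and the same count of 0 held for TGACGTCA (1.62%), TTGCGCAA (0.170%), TTGCNNCAA (1.78%, a pattern that TTGCGCAA also matches), TGTTTAC (3.09%), CAAAGTCCA (0.381%) and CTTTGAA (4.64%). These are matches of letters and no measurement of binding, and enhancers lie outside the windows. GC content was 45.6% in Hal, 46.4% in Tdo2, 55.6% in Uroc1 and 56.0% in Ftcd, against a median of 52.0% over all promoters.

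Scaled for annotated exon length, the order of the enzymes within a group could be compared. In control liver Hpd led with 794 ± 82.0 CPM per kilobase (mean ± SD, n = 2), followed by Tdo2 with 679 ± 80.5, Tat with 332 ± 148, Ftcd with 74.1, Uroc1 with 59.5, Hal with 28.3, Sds with 25.1, Prodh with 22.9 and Sdsl with 3.47. Hpd and Tdo2 were within their spread of each other there, as were all neighbours from Ftcd down to Prodh. In KAP1-deleted liver Tdo2 led with 811 ± 56.6 CPM per kilobase and Hpd followed with 525 ± 82.4, and Sds with 23.9 and Prodh with 19.8 were the neighbours that did not differ beyond their spread. In tumour Tdo2 with 472 ± 149 CPM per kilobase and Hpd with 245 ± 29.2 remained first and second, Tat had come down to 29.7, beside Ftcd at 27.5, and Prodh at 21.4 stood above Uroc1 at 10.8, Hal at 3.95, Sds at 2.32 and Sdsl at 0.523. From Tat downward, tumour neighbours were within their spread of each other. Tdo2 and Hpd together made up 72.2% to 78.4% of the summed CPM of the 9 enzymes in the livers and 88.5% and 82.1% in the tumours, while that sum went from 5478 to 6387 CPM in the livers to 3170 and 2318 CPM in the tumours.

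**Figure D1:**
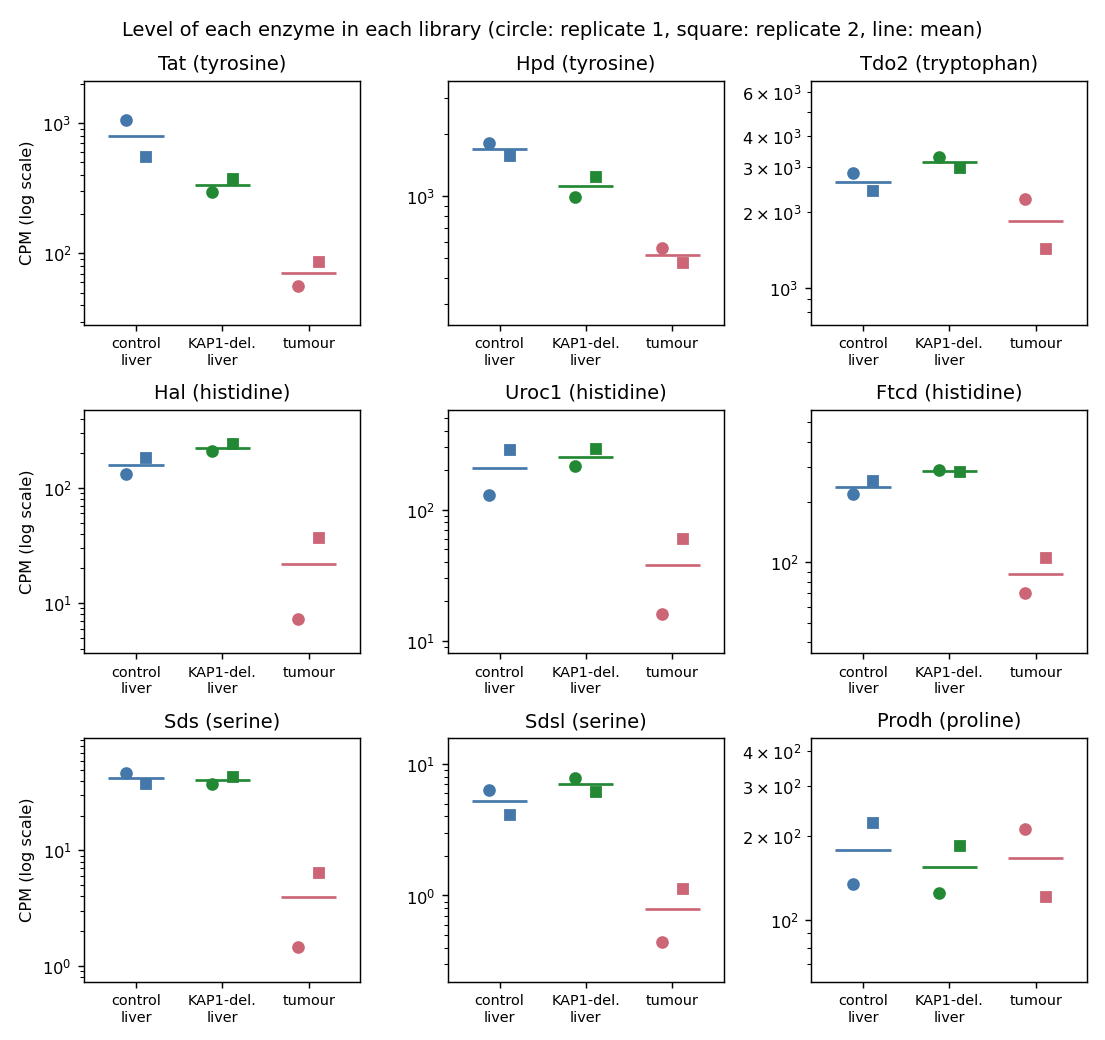
Each panel plots the CPM of 1 enzyme (log axis) in the 6 libraries, 2 each of control liver, KAP1-deleted liver and KAP1-deleted tumour; each point is a library. The tumour points lie below all 4 liver points in 8 panels, by the widest gap for Sds (a lowest liver of 37.8 CPM over a highest tumour of 6.40 CPM), and for Prodh the groups overlap.

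Both tyrosine enzymes fell in tumour against each liver group, and neither passed between the liver groups. Tat, which transfers the amino group off tyrosine and is the step that limits its breakdown, measured 1049 and 547 CPM in control liver, 296 and 374 CPM in KAP1-deleted liver and 56.7 and 86.0 CPM in tumour. The groups formed 3 steps with no overlap, although the 2 control livers themselves differed widely. Between tumour and KAP1-deleted liver Tat fell by 2.23 on the log2 scale (SE 0.36, 4.70-fold lower, adjusted p = 0.0102 by edgeR's quasi-likelihood test with Benjamini-Hochberg adjustment over all 17558 genes). The adjusted p without tumour 1 was 0.0731, and over the 15 alternatives it ranged from 1.5e-14 to 0.0731. Against control liver Tat fell by 3.48 (SE 0.38, 11.2-fold lower, edgeR adjusted p = 0.00179), the largest value of the 9 in that comparison. Between KAP1-deleted and control liver the log2 difference of Tat was -1.25 (SE 0.35) and did not pass (edgeR unadjusted p = 0.00771, adjusted p = 0.417). That call depended on the test: the adjusted p was 0.0383 with DESeq2, 2.1e-04 without a filter on low counts and 0.0215 with the mouse as a replicate block, with a range up to 1, and without control 1 the difference was -0.71.

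Hpd, the next enzyme, turns the product of Tat into homogentisate and is the target of the tyrosinaemia drug nitisinone. It measured 1813 and 1567 CPM in control liver, 993 and 1241 CPM in KAP1-deleted liver and 564 and 477 CPM in tumour. As for Tat, the 3 groups did not overlap, and here the replicates lay close together. Between the liver groups alone 5 of the 9 did not overlap, 2 lower in KAP1-deleted liver (Tat and Hpd) and 3 higher (Hal, Ftcd and Tdo2), while 14.6% of all tested genes lay lower and 16.7% higher without overlap. Hpd fell by 1.10 between tumour and KAP1-deleted liver (SE 0.25, 2.15-fold lower, edgeR adjusted p = 0.0313), a call lost when either of those livers or either tumour was left out (0.0844 to 0.238, with a range from 1.1e-04 over all alternatives). It fell by 1.70 between tumour and control liver (SE 0.26, 3.25-fold lower, edgeR adjusted p = 0.00612), a call kept under all 15 alternatives. Between the liver groups its log2 difference was -0.60 (SE 0.25, edgeR unadjusted p = 0.0452, adjusted p = 0.897).

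Of the 7 other tyrosine and phenylalanine genes tested, 1 fell and 0 rose between tumour and KAP1-deleted liver, with a median of -0.46, and the count that fell was 0 without tumour 1 or KAP1-deleted liver 2 and 2 without either control. The one that fell was Qdpr, which regenerates tetrahydrobiopterin (-1.19, SE 0.19, edgeR adjusted p = 0.00906, 47.9 against 109 CPM). Hgd, which acts after Hpd, had a value above 0 (0.58, edgeR adjusted p = 0.157).

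Of the 3 histidine enzymes Ftcd fell in the tumours, and Hal and Uroc1, whose tumour values lay farther below liver but also farther apart, did not pass. All 3 were lower in tumour 1 than in tumour 2. Hal, which removes ammonia from histidine to give urocanate, measured 132 and 182 CPM in control liver, 209 and 239.8 CPM in KAP1-deleted liver and 7.33 and 36.5 CPM in tumour. The lowest liver value of Hal was 3.62 times the highest tumour value, and tumour 2 was 4.98 times tumour 1. With that spread its log2 difference between tumour and KAP1-deleted liver, -3.36 (SE 0.77, 10.2-fold), did not pass (edgeR adjusted p = 0.0534, range over the alternatives 1.6e-33 to 0.365). The value of Hal was -2.62 without tumour 1 and -4.95 without tumour 2. It passed with upper-quartile scaling (0.0480), a minimum mean CPM of 5 (0.0346), DESeq2 (7.7e-04), limma-voom (0.0134) and no filter on low counts. A fit that leaves out 1 tumour holds none of the spread between the tumours, so its p is not given singly for Hal. The ranges over the alternatives include such fits. The same limit applies to every adjusted p, lost call or count given without 1 library for the other genes and lists. Those reflect a changed estimate of error as well as the library left out, and the parts were not separated. Against control liver the value of Hal was -2.84 (SE 0.76, edgeR adjusted p = 0.0689, range 1.7e-25 to 0.359), with -2.11 without tumour 1 and -4.43 without tumour 2, and between the liver groups 0.51 (SE 0.70, adjusted p = 1).

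Uroc1, which hydrates urocanate, measured 129 and 284 CPM in control liver, 216 and 289 CPM in KAP1-deleted liver and 16.1 and 59.2 CPM in tumour. The 2 control livers differed by a ratio of 2.20 and the 2 tumours by 3.69, and yet no tumour reached the lowest liver. Its log2 difference was -2.75 between tumour and KAP1-deleted liver (SE 0.72, edgeR adjusted p = 0.0723) and -2.46 between tumour and control liver (SE 0.72, adjusted p = 0.0844), neither of which passed. Without tumour 1 these values were -2.10 and -1.81, without tumour 2 -3.99 and -3.69, and the second was -1.78 without control 2. With the mouse as a replicate block these adjusted p values were 0.00797 and 0.0110, and with DESeq2 0.0105 and 0.0234. Over all alternatives they ranged from 2.8e-23 to 0.424 and from 2.4e-19 to 0.407. Between the liver groups Uroc1 differed by 0.29 (SE 0.68, edgeR adjusted p = 1).

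Ftcd, the enzyme that passes the last carbon of histidine to tetrahydrofolate, had the KAP1-deleted livers that lay closest together of all 9. It measured 219 and 254 CPM in control liver, 289.96 and 282 CPM in KAP1-deleted liver and 70.3 and 105 CPM in tumour. Ftcd fell by 1.70 between tumour and KAP1-deleted liver (SE 0.24, 3.26-fold lower, edgeR adjusted p = 0.00616, at most 0.0370 under any of the 15 alternatives). Against control liver it fell by 1.43 (SE 0.24, 2.69-fold lower, edgeR adjusted p = 0.00876), a call lost without tumour 1 (0.0509, with a range from 4.6e-07 over the alternatives). Ftcd differed by 0.27 between the liver groups (SE 0.23, adjusted p = 1), and its fall was thus called where the steeper estimates of Hal and Uroc1, with larger errors, were not.

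Amdhd1, the enzyme between Uroc1 and Ftcd and no member of the 9, stood at 12.0 ± 9.42 CPM in tumour and 125 ± 1.45 CPM in KAP1-deleted liver (SD, n = 2). It fell by 3.39 (SE 0.57, edgeR adjusted p = 0.0189), a call lost under 6 alternatives, with a highest adjusted p of 0.189. Of the 7 further histidine and one-carbon genes tested, Amdhd1 among them, 3 fell and 0 rose between tumour and KAP1-deleted liver, with a median of -0.58. The others were Gnmt, the glycine methyltransferase that disposes of excess methyl groups (-2.22, SE 0.23, edgeR adjusted p = 0.00221, 154 against 720 CPM), and Aldh1l1, which oxidises formyltetrahydrofolate (-1.90, SE 0.26, adjusted p = 0.00559), both called under every alternative.

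Both serine dehydratases fell in the tumours, and they held the lowest tumour levels of the 9. Sds and Sdsl are neighbours on chromosome 5 on opposite strands, with 0 other genes of the tables between them, and both use pyridoxal phosphate to turn serine into pyruvate. Sds measured 47.3 and 37.8 CPM in control liver, 38.0 and 42.9 CPM in KAP1-deleted liver and 1.45 and 6.40 CPM in tumour. The 4 livers were nearly level, and the tumours were each far below them yet differed from each other by a ratio of 4.41. In reads, the tumour values rest on 105 counts (95% exact Poisson interval 85.9 to 127) in tumour 1 and 336 (301 to 374) in tumour 2, intervals that cover counting error only. Sds fell by 3.38 between tumour and KAP1-deleted liver (SE 0.68, 10.4-fold lower, edgeR adjusted p = 0.0379) and fell by 3.45 between tumour and control liver (SE 0.69, adjusted p = 0.0323). Without tumour 1 these values of Sds were -2.66 and -2.74, and without tumour 2 they were -4.81 and -4.88. Both calls were lost with the mouse as a replicate block (0.124 and 0.118), with the libraries of the compared groups alone (0.133 in each) and without any 1 of the 4 livers (0.150 to 0.306 against KAP1-deleted liver and 0.163 to 0.212 against control liver). Over all alternatives the adjusted p ranged from 7.3e-38, without a filter on low counts, to 0.306 and from 1.7e-39 to 0.212. Between the liver groups Sds differed by -0.07 (SE 0.62, adjusted p = 1).

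The value of Sds is uncertain for another reason. Its exons overlap those of Plbd2, a lysosomal phospholipase-like gene on the other strand, and only 75.4% of the 31-base words of Sds occur in no other gene, against 98.2% to 100% for the other members. The sources used here do not say whether reads were assigned by strand. Plbd2 measured 20.05 to 25.7 CPM in the livers and 9.25 and 8.49 CPM in tumour, so that the tumour level of Sds stood below that of its overlapping gene. The antisense gene Gm15690 at the same place had 19 to 39 counts in each liver library and 2 and 6 in the tumours. Hpd and Prodh also overlap a gene on the other strand, Psmd9 and Dgcr6, but not in exons.

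Sdsl, a paralog with weaker dehydratase activity, was the least abundant member at 6.29 and 4.09 CPM in control liver, 7.88 and 6.12 CPM in KAP1-deleted liver and 0.442 and 1.12 CPM in tumour. The tumour values come from 32 reads (95% exact Poisson interval 21.9 to 45.2) and 59 reads (44.9 to 76.1), and the lowest liver was 3.64 times the highest tumour. Sdsl fell by 3.19 between tumour and KAP1-deleted liver (SE 0.45, 9.10-fold lower, edgeR adjusted p = 0.00592, at most 0.0215 under 14 alternatives; the minimum mean CPM of 5 removed it). It fell by 2.75 between tumour and control liver (SE 0.44, 6.72-fold lower, edgeR adjusted p = 0.00774, at most 0.0281). Without tumour 2 the 2 estimates were -3.99 and -3.55, and without tumour 1 they were -2.64 and -2.20. Sdsl differed by 0.44 between the liver groups (SE 0.40, adjusted p = 1). Despite low counts, Sdsl and Ftcd were the members called in both tumour comparisons whose calls against KAP1-deleted liver held in every alternative that tested them.

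Among the 13 other serine, glycine and threonine genes tested, 6 fell and 0 rose between tumour and KAP1-deleted liver, with a median of -0.85. The count that fell was 3 without tumour 1 or KAP1-deleted liver 2, 4 without tumour 2, 8 without either control, and at most 9 under the other alternatives. Agxt, which turns glyoxylate into glycine, fell by 2.93 (SE 0.39, edgeR adjusted p = 0.00554, 17.4 against 132 CPM), and Bhmt, which remethylates homocysteine with betaine, fell by 2.15 (SE 0.29, edgeR adjusted p = 0.00528, 1818 against 8075 CPM). Dmgdh, the next enzyme after Bhmt on betaine carbon, fell by 1.74 (SE 0.20, adjusted p = 0.00278).

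Tdo2 stayed the most abundant member in tumour and was called in none of the 3 comparisons. It measured 2857 and 2415 CPM in control liver, 3302 and 2992 CPM in KAP1-deleted liver and 2241 and 1426 CPM in tumour. The higher tumour lay just under the lowest liver, at a ratio of 1.08, and in contrast to the histidine and serine enzymes it was tumour 2 that was lower. That narrow gap depended on the adjustment for library composition. Its factors were 1.31 and 1.22 for tumours 1 and 2 and 0.864 to 0.948 for the livers. Without those factors tumour 1 would lie above all 4 livers for Tdo2. The log2 difference of Tdo2 between tumour and KAP1-deleted liver was -0.78 (SE 0.31, 1.72-fold, edgeR unadjusted p = 0.0351, adjusted p = 0.140), that between tumour and control liver -0.52 (SE 0.31, adjusted p = 0.295), and that between the liver groups 0.26 (SE 0.31, adjusted p = 1). A p that misses the threshold does not show that Tdo2 was level.

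Of 9 other tryptophan genes tested, 4 fell and 0 rose between tumour and KAP1-deleted liver, and the median was -1.42. Ido2, which can carry out the same first step as Tdo2, fell by 2.25 (SE 0.47, edgeR adjusted p = 0.0319, 6.25 against 29.5 CPM). Haao, which opens the ring of 3-hydroxyanthranilate, fell by 1.42 (SE 0.24, edgeR adjusted p = 0.0109, 76.2 against 204 CPM), and Afmid, which acts on the product of Tdo2, fell by 1.66 (SE 0.26, adjusted p = 0.00888). Kynu, which cleaves kynurenine, fell by 2.20 (SE 0.26, edgeR adjusted p = 0.00323, 35.9 against 165 CPM), called under every alternative. The count of 4 was 1 without tumour 1, 7 at most under the other alternatives, and 1 to 5 over the fits that left out 1 library.

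Prodh was the member whose tumour values overlapped those of liver. It measured 135 and 222 CPM in control liver, 125 and 184 CPM in KAP1-deleted liver and 212 and 121 CPM in tumour, so that the highest and the lowest of the last 4 values were both tumours. Its log2 difference was 0.11 between tumour and KAP1-deleted liver (SE 0.35, edgeR adjusted p = 0.867), -0.10 between tumour and control liver (SE 0.35, adjusted p = 0.879) and -0.21 between the liver groups (SE 0.35, adjusted p = 1). Of 9 other proline genes tested between tumour and KAP1-deleted liver, 3 fell and 1 rose (median -0.66). The count that fell was 0 without tumour 1, 1 without tumour 2 or either KAP1-deleted liver, 5 without control 1 and 5 with the mouse as a replicate block, and 2 rose without tumour 1 and with the block. The one that rose was Pycr1, which makes proline rather than breaking it down, at 1.87 CPM in tumour and 0.0984 CPM in KAP1-deleted liver (log2 difference 4.21, SE 0.58, edgeR adjusted p = 0.00559). Its liver level was near the floor. Its mean over all libraries was 0.704 CPM, and the minimum mean CPM of 5 removed it. Oat, which joins proline and ornithine metabolism and had the highest CPM of those not called, differed by -0.03 (SE 0.63, adjusted p = 0.981).

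**Figure D2:**
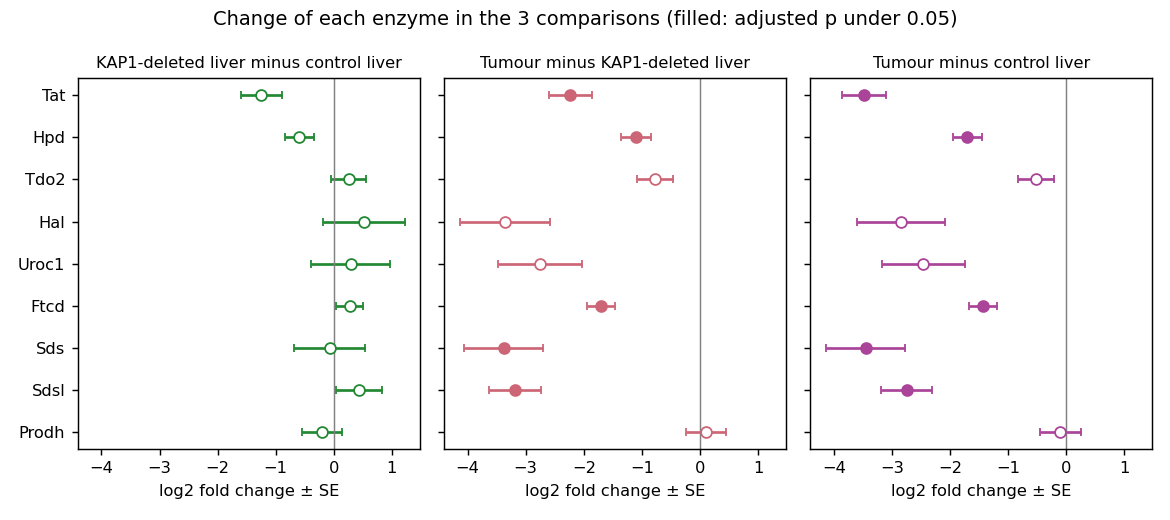
Log2 fold change of each enzyme with its SE in the 3 comparisons, filled where a gene passed the test at an adjusted p under 0.05. In both tumour comparisons 5 of 9 points are filled, all below 0, while no point is filled between the liver groups, where Tat lies lowest at -1.25.

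Counted together, 0 of the 9 passed between KAP1-deleted and control liver in either direction, while 0.0968% of all tested genes were called lower and 0.239% higher in KAP1-deleted liver. At an edgeR unadjusted p under 0.05 there were 2 of the 9 (Tat and Hpd), beside 955 of all 17558 genes tested. DESeq2 called 1 of the 9 (Tat), beside 78 lower and 152 higher over all genes tested. With limma-voom 0 of the 9 were called, beside 11 lower and 16 higher over all genes. Between tumour and KAP1-deleted liver 5 of 9 fell (Tat, Sds, Sdsl, Ftcd and Hpd) and 0 rose, beside 6.64% of all tested genes called lower and 4.8% called higher, with a median log2 difference of -2.23 over the 9 and -0.03 over all genes tested. Over all genes, 842 were called higher and 1165 lower in that comparison, a split that upper-quartile scaling turned into 970 higher and 896 lower. Between tumour and control liver the same 5 fell and 0 rose, beside 7.76% called lower and 6.15% called higher, with a median of -2.46 over the 9 and -0.02 over all genes. The comparisons share libraries, so their values for the same enzyme are not separate evidence. Both tumours lay below all 4 livers for 8 of the 9 (all but Prodh), an arrangement found for 24.7% of all tested genes. For Tdo2 it depended on the adjustment for library composition. The replicates were 1 mouse each, and with 2 per group the spread is estimated from few animals.

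Each tumour could also be set against the liver of its own mouse. The log2 ratio of tumour to liver in mouse 1 and mouse 2 was -4.83 and -2.72 for Hal, -4.71 and -2.75 for Sds, -4.16 and -2.45 for Sdsl, and -3.75 and -2.29 for Uroc1. Those 4 were the enzymes with the lowest ratios in both mice, and each was lower in mouse 1. For Tat the ratios were close, at -2.38 and -2.12, and for Ftcd they were -2.04 and -1.42. Hpd with -0.82 and -1.38 and Tdo2 with -0.56 and -1.07 were lower in mouse 2. Prodh went opposite ways, with 0.76 in mouse 1 and -0.60 in mouse 2. For Tdo2 in mouse 1 the value below 0 depended on the adjustment for library composition. With that adjustment, 8 of 9 enzymes were below their own liver in both mice. The share of all genes with that arrangement was not computed. The stricter one, both tumours below all 4 livers, was found for 24.7% of all tested genes.

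**Figure D3:**
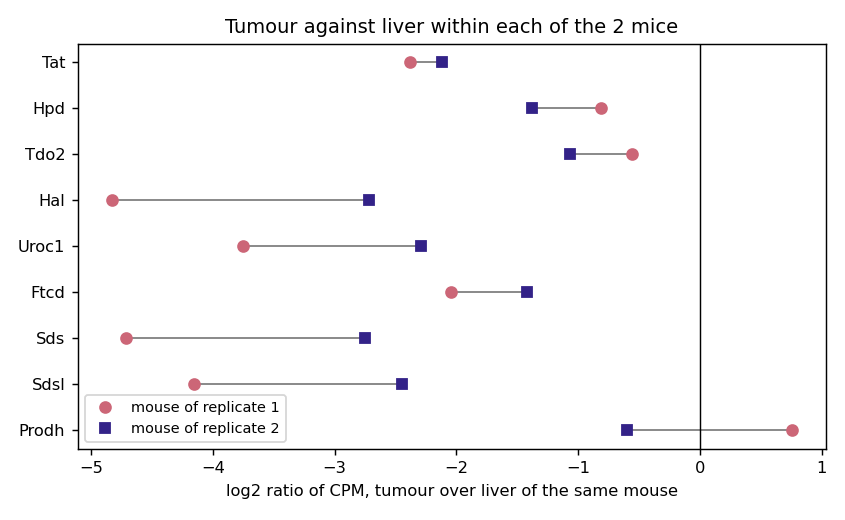
Log2 ratio of tumour to liver CPM for each enzyme, 1 point for each of the 2 KAP1-deleted mice. Both points lie below 0 for 8 enzymes, with the wider gaps between mice at Hal (-4.83 and -2.72) and Sds (-4.71 and -2.75), and the points of Prodh lie on either side of 0. The share of all genes with both points below 0 was not computed.

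The enzymes were then set beside the wider breakdown pathways, in 7 lists that leave the 9 out. Of 77 listed genes 75 were tested, and between tumour and KAP1-deleted liver 27 fell, 1 rose (Pycr1) and 65 had a value below 0, with a median of -0.70. Over all 17558 genes tested, 6.64% were called lower, 4.8% were called higher and 52.2% had a value below 0. With the mouse as a replicate block 45 of the 75 fell and 2 rose. The count of 27 depended on single libraries: it was 9 without tumour 1, 14 without tumour 2, 17 without KAP1-deleted liver 1 and 12 without KAP1-deleted liver 2. Between tumour and control liver 31 fell and 1 rose (median -0.74), with 13 without tumour 1, 15 without tumour 2 and 16 without control 2. Between the liver groups 0 of 75 passed, 34 had a value below 0 (49.4% over all genes tested) and the median was 0.01. The branched-chain and lysine list had 6 of 19 lower and 0 higher between tumour and KAP1-deleted liver, with a median of -0.68. That count was 13 with the mouse as a replicate block, 0 without either tumour, 2 without KAP1-deleted liver 1, 1 without KAP1-deleted liver 2 and 11 and 10 without controls 1 and 2. The transaminase and sulfur list had 4 of 11 lower with a median of -1.18, a count of 9 with the block and of 2 without tumour 1, tumour 2 or KAP1-deleted liver 2. Cbs, which joins homocysteine to serine, fell by 1.35 (SE 0.17, edgeR adjusted p = 0.00417).

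Among 11 amino acid transporters tested, 3 fell and 1 rose between tumour and KAP1-deleted liver, with a median of -0.54. Slc16a10, which carries aromatic amino acids such as tyrosine and tryptophan across the plasma membrane, rose by 2.06 (SE 0.23, edgeR adjusted p = 0.00278, 424 against 102 CPM). Slc43a1, a carrier of large neutral amino acids, fell 2.83-fold (edgeR adjusted p = 0.00952), and Slc38a3 and Slc38a4, sodium-coupled carriers of neutral amino acids, fell by 1.22 (SE 0.22, adjusted p = 0.0133) and fell by 1.53 (SE 0.27, adjusted p = 0.0131). Without KAP1-deleted liver 2, tumour 1 or tumour 2 the number that fell was 1.

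Receptors and factors known to act on these enzymes or on hepatocyte genes mostly had values below 0 in tumour, and most were not called. Of 18 such genes tested, 0 passed between the liver groups. Between tumour and KAP1-deleted liver 15 had a value below 0 (52.2% over all genes tested), with a median of -0.44. In that comparison 3 of the 18 fell and 0 rose, beside 6.64% of all tested genes called lower and 4.8% called higher. That count was 7 with the mouse as a replicate block, 1 without KAP1-deleted liver 2 and 0 without tumour 1. Cebpa, a hepatocyte factor for genes of fed and fasted metabolism, fell by 1.68 (SE 0.23, edgeR adjusted p = 0.00589, 47.5 against 152 CPM) and was lost without tumour 1 (0.0529, with a range from 5.9e-10). Cebpb, its relative of the acute response, fell by 1.25 (SE 0.23, adjusted p = 0.0155). Onecut1, a factor of hepatocyte and bile duct development, fell by 2.66 (SE 0.69, edgeR adjusted p = 0.0461, 0.258 against 1.57 CPM), a call kept under 6 of 14 alternatives. Nr3c1, the glucocorticoid receptor, differed by -0.20 (SE 0.18, edgeR adjusted p = 0.484), Gcgr, the glucagon receptor, by -0.43 (adjusted p = 0.213) and Hnf4a by -0.85 (SE 0.28, adjusted p = 0.0863).

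A list of 11 glucocorticoid-induced liver genes without Tat or Tdo2 had 5 lower and 0 higher between tumour and KAP1-deleted liver and a median of -1.39, with 2 to 6 lower when 1 library was left out. Pck1, the enzyme that commits carbon to glucose synthesis, fell by 3.34 (SE 0.46, edgeR adjusted p = 0.00559), and Dusp1, a MAP kinase phosphatase, fell by 1.39 (SE 0.20, adjusted p = 0.00657). Between KAP1-deleted and control liver 0 of the 11 passed, 9 had a value below 0 and the median was -0.46, beside 0.00 over all genes tested.

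Zone markers gave opposite counts. Of 16 other periportal genes, 9 fell and 0 rose between tumour and KAP1-deleted liver, with a median of -2.85. Arg1, the last enzyme of the urea cycle, fell by 3.35 (SE 0.51, edgeR adjusted p = 0.00889). Cps1, which starts the urea cycle, fell by 2.84 (SE 0.45, adjusted p = 0.00901, 958 against 6875 CPM), and Ass1 of the same cycle fell by 2.10 (SE 0.28, adjusted p = 0.00492). Pck1 belongs to this list too. The count was 5 without KAP1-deleted liver 1 and 6 without KAP1-deleted liver 2. Of 15 pericentral genes tested, 13 rose and 0 fell, with a median of 2.62, and at least 10 rose in every fit that left out 1 library. Glul, the glutamine synthetase of the innermost hepatocyte ring, rose by 3.52 (SE 0.37, edgeR adjusted p = 0.00238, 4819 against 419 CPM). Lgr5 and Nkd1, targets of Wnt signalling, rose by 3.38 (SE 0.20, adjusted p = 3.0e-04) and by 4.42 (SE 0.23, adjusted p = 2.5e-04). Between KAP1-deleted and control liver 1 periportal gene passed: Hsd17b6, a hydroxysteroid dehydrogenase, fell by 2.27 (SE 0.28, edgeR adjusted p = 0.0244, 22.0 against 106 CPM, at most 0.0715 under the alternatives). These counts describe the lists as a whole; no test compared them with the 9 enzymes.

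**Figure D4:**
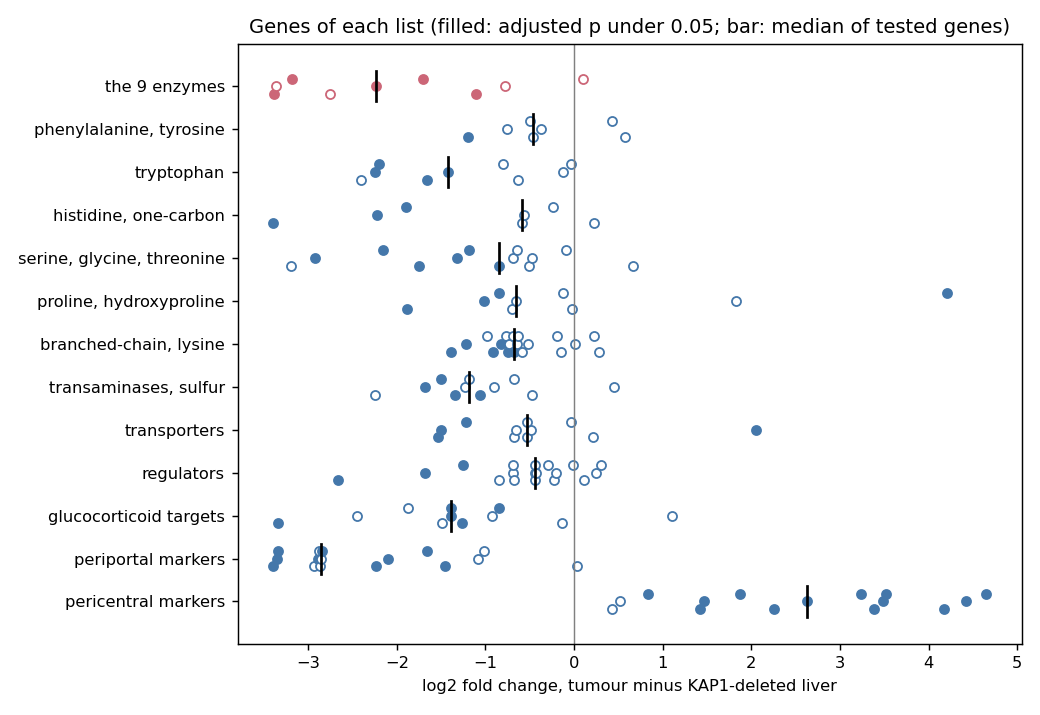
Log2 fold change between tumour and KAP1-deleted liver of every tested gene of each list (1 point per gene, filled where called, with a bar at the list's median). The medians of the 9 enzymes (-2.23) and of the other periportal genes (-2.85) lie lowest among the lists described, and the pericentral median is 2.62.

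Genes whose profile over the 6 libraries lay closest to the mean of the 9 enzymes were found among 6616 genes with a mean CPM of at least 10, by the root mean squared difference of centred log2 CPM. The closest was Mfsd4b1 at 0.102, a transporter family member with 32.4 to 42.8 CPM in the livers and 5.95 and 9.73 CPM in tumours 1 and 2. Serpina1d followed at 0.107, then Vipr1, a receptor for vasoactive intestinal peptide, at 0.119, Slco2b1, an organic anion carrier, at 0.127 and Serpina1b at 0.158. Serpina1d and Serpina1b are near-identical paralogs whose reads may be divided between them. The enzymes themselves lay farther from their mean, from 0.322 for Ftcd to 1.15 for Prodh.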

How the data were processed

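RNA was sequenced from 6 mouse libraries, 2 per group, with a stranded Illumina kit per the labels' protocols, whose extraction text speaks of cell lines where the other labels give tissue. The deposited files hold raw read counts per gene, made with TopHat and HTSeq 0.6.1 on mm9 per the submitters' processing notes; the sources used here name neither the annotation nor the counter's strand setting. Rows that name no gene (20.9% to 36.7% of a library) stayed out of library sizes and tests. Identifiers were matched to symbols through the reference tables (32919 of 37991). Genes passing filterByExpr (minimum count 10, minimum total 15) were scaled by TMM and fitted over all 6 libraries with 1 mean per group in edgeR 4.0.16 (robust quasi-likelihood test, 3 residual degrees of freedom; R 4.3.3), with Benjamini-Hochberg adjustment over 17558 genes and a threshold of 0.05. The script was tested on simulated data. SE is the absolute log2 fold change over the square root of F. CPM, computed here from the deposited counts, uses TMM library sizes. The 15 alternatives were 2 other scalings, 2 other filters, removal of the 20 most abundant genes, DESeq2 1.42.0, limma-voom (limma 3.58.1), the compared groups alone, the mouse as a replicate block, and each library left out. Leaving out a library leaves 1 in its group, and that group then adds nothing to the estimate of spread. Liver and tumour libraries of the KAP1-deleted group come from the same 2 mice per the labels, and their deviations correlated at r = 0.165 across genes, which are not independent replicates. Members and lists were chosen with earlier results of these data known. The rule for named genes takes all members, Trim28, Alb, up to 4 called genes and the most abundant uncalled gene per list, the 5 most alike genes and overlapping genes; the text describes part of what it takes, 1 gene is not reported here, and Hgd, Gcgr, Nr3c1, Hnf4a, Aldh1l1 and other list members named beside those were chosen with their values seen.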

Additional observations from a re-analysis of the deposited data

How the results depend on the processing

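Over all genes, 59 were called between the liver groups, against 571 with no filter on low counts, 17 with a mean CPM of at least 5, 230 with DESeq2, 27 with limma-voom, 20 with the compared groups alone, 352 with the mouse as a replicate block and 30 to 75 with 1 library left out. Between tumour and KAP1-deleted liver 2007 were called, against 3819 with no filter, 1228 with a mean CPM of at least 5, 3889 with the replicate block and 640 to 2715 with 1 library left out. Between tumour and control liver 2443 were called, against 4115, 1432, 4153 and 1103 to 2621 in the same order. Of the 9 enzymes, 1 (Tat) was lower between the liver groups with no filter, with DESeq2 and with the replicate block, where none was otherwise; leaving out 1 library gave 3 to 6 lower between tumour and KAP1-deleted liver and 4 to 7 between tumour and control liver. The block leaves 1 residual degree of freedom; beyond the calls of Tat, Sds and Uroc1 given with those genes, it changed no other call on the 9. Estimates that changed sign did so when 1 library was left out and were not called: between the liver groups Sds ran from -0.25 to 0.0947, Uroc1 from -0.17 to 0.95 and Prodh from -0.52 to 0.18, and Prodh ran from -0.36 to 0.44 against KAP1-deleted liver and from -0.56 to 0.30 against control liver in the tumour comparisons. The cause was not tested. Depth limits Sdsl most, at 32 and 59 reads in the tumours.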
